A study of Mus musculus with 7 samples.

Results

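The 10 genes described here mark neutrophils, with the cytokine interleukin-1 beta, in mouse liver. They are S100a8, S100a9, Ngp, Mmp8, Mmp9, Csf3r, Il1r2, Ly6g, Retnlg and Il1b, taken by symbol, and all 10 were found among the 54532 genes of the deposited table. The livers came from old C57BL/6 mice in 2 groups, 3 libraries from mice kept on a standard diet after MDL-800 supplementation and 4 from control mice kept on a standard diet alone. The compound MDL-800 activates SIRT6, a chromatin deacetylase. Dose, duration, exact age and sex are not given in the labels, and they do not say whether the libraries of a group are separate animals; the spread between libraries, on which every p-value rests, may therefore be partly technical. The comparison asks whether neutrophil and Il1b transcripts differed between the livers of treated and control mice.

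Neutrophils are short-lived phagocytes made in bone marrow under the growth factor G-CSF. They reach the liver with the blood, pass through its sinusoids and gather there when chemokines and interleukin-1 signal injury or infection. Their precursors fill granules with proteases and antimicrobial proteins in a fixed order, so transcripts of granule proteins are most abundant in immature cells, whereas S100a8, S100a9 and the surface receptors persist in mature ones. Interleukin-1 beta is made as an inactive precursor that the inflammasome protease caspase-1 cleaves, and monocytes and Kupffer cells, the resident macrophages of the liver, make it as well as neutrophils.

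A single control library stood apart. Control 2 held the highest value of 9 of the 10 genes, all but Il1r2, and MDL-800 1 held the next highest of 9, all but Ly6g. Control 2 was the highest of the 7 libraries for 15.0% of the 11394 genes whose mean reached 1 FPKM, the genes tested below, and for 19.2% of the 26975 genes above 0 in at least 1 library. FPKM is fragments per kilobase of gene, scaled to sequencing depth, so levels can be compared between genes. MDL-800 1 was second for all 6 members that reached that mean and for 12.9% of all such genes. With summed reads as the FPKM denominator control 2 was highest for 9 of the 10 again, and for 28.6% of tested genes. For 8 of the 10 genes control 2 stood at 4 or more times the median of the other 6 libraries, as did 5 of the 6 tested members, against 2.33% of all such genes. MDL-800 2 held the lowest value of 8 of the 10 genes, against 35.6% of the 26975 genes above 0 anywhere, ties at 0 included, and of 5 of the 6 tested members, against 13.5% of tested genes. Among the 4 controls, control 2 lay apart by Dixon's criterion, the gap to the next value over the range, for 9 of the 10 genes, including all 6 tested members, where it did so on the high side for 2.15% of tested genes and 7.25% of those above 0. The 2 groups overlapped for all 10 genes; they did not overlap for 6.45% of tested genes and for 4.58% of those above 0. In bulk liver, fewer neutrophils and less RNA per neutrophil cannot be told apart.

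**Figure D1:**
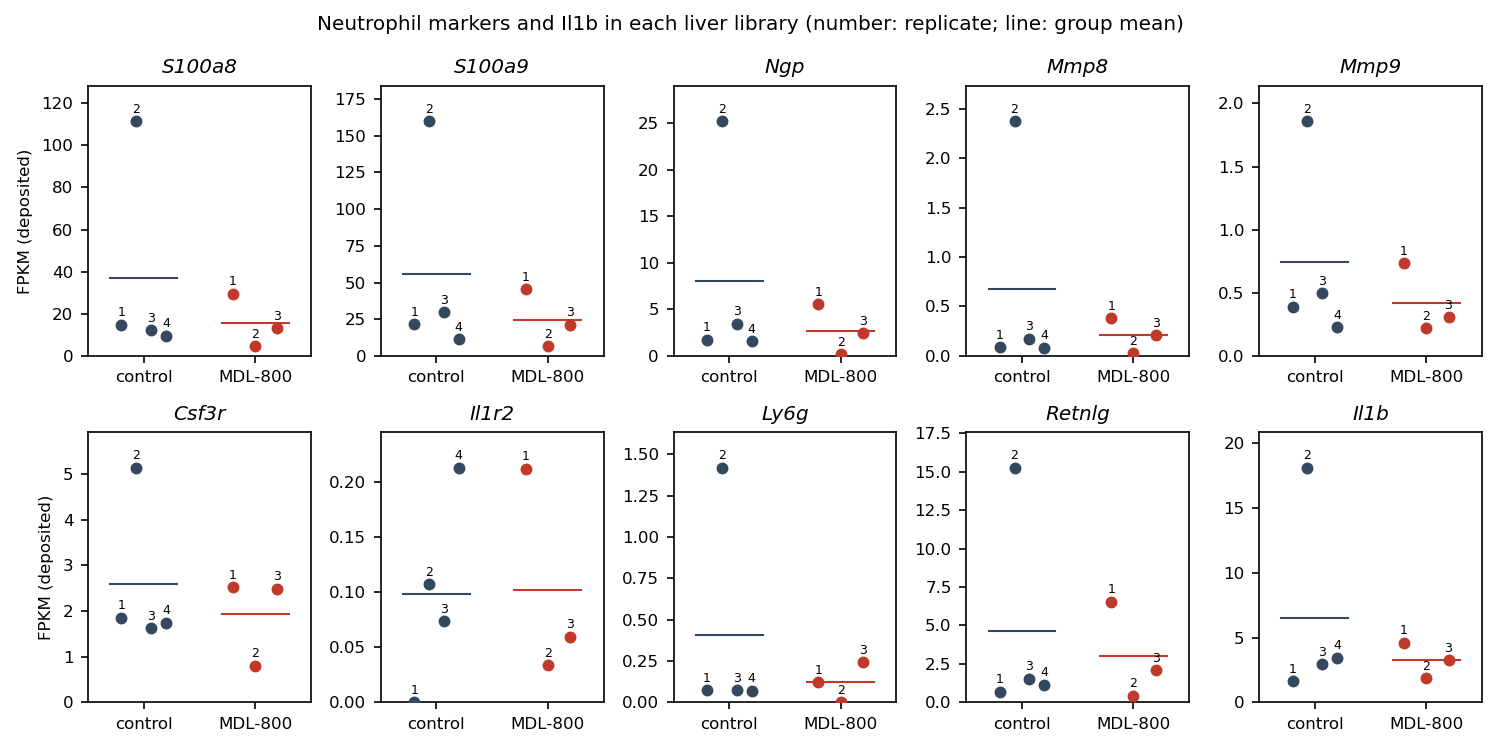
Deposited FPKM of each gene (vertical axes, linear and starting at 0, scaled per gene) in the 4 control and 3 MDL-800 libraries. Points are libraries numbered by replicate and lines are group means; control 2 lies above every other library in all panels except Il1r2.

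Recovered whole reads, obtained from FPKM and gene length, numbered 17600066 to 19920469 per library. Albumin, the defining hepatocyte transcript, was at 35737 to 62511 FPKM in the 7 libraries. Control 1 and MDL-800 2 held reads of Y-linked genes (2173 and 3514) and the other 5 libraries held 0, called Y-negative here; the labels give no sex. These 5 are not alike: Xist, the transcript of the inactive X chromosome, was at 49.98 to 63.5 FPKM in 4 of them and at 0 in control 3. Since this split crosses the groups, values within it are given beside the pooled ones.

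S100a8 and S100a9 encode the subunits of calprotectin, a calcium- and zinc-binding protein that fills the neutrophil cytosol and is released at sites of inflammation. S100a9 (chromosome 3, 90692632 to 90695721, minus strand, GRCm38) was at 45.4, 6.66 and 21.4 FPKM in MDL-800 1, 2 and 3, and at 21.5, 159.9, 30.0 and 11.4 FPKM in control 1, 2, 3 and 4. S100a8 (chromosome 3, 90668978 to 90670035, plus strand) was at 29.5, 4.54 and 13.1 FPKM in MDL-800 1, 2 and 3, and at 14.9, 111.5, 12.2 and 9.68 FPKM in control 1 to 4. Control 2 was thus high for both, MDL-800 1 came next and MDL-800 2 was low, while MDL-800 3 lay among the other controls. S100a9 was the most abundant of the 10 genes in all 7 libraries and S100a8 the next. Their levels spanned 24.0-fold for S100a9 and 24.5-fold for S100a8 between libraries, but the ratio of S100a9 to S100a8 stayed between 1.18 in control 4 and 2.46 in control 3, with 1.43 in control 2. The group means were 24.5 ± 19.5 FPKM for MDL-800 (SD, n = 3) and 55.7 ± 69.9 FPKM for control (SD, n = 4) for S100a9, where the control SD exceeds the control mean. Those of S100a8 were 15.7 ± 12.7 FPKM for MDL-800 (SD, n = 3) and 37.1 ± 49.6 FPKM for control (SD, n = 4). Without control 2 the control mean of S100a9 was 21.0 ± 9.31 FPKM (SD, n = 3), and that of S100a8 12.3 ± 2.61 FPKM (SD, n = 3), both below the MDL-800 means.

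Among the granule genes, Ngp encodes neutrophilic granule protein, a cystatin-related protein of maturing neutrophils. Ngp (chromosome 9, 110419747 to 110423012, plus strand) was at 5.59, 0.158 and 2.42 FPKM in MDL-800 1, 2 and 3, and at 1.75, 25.2, 3.47 and 1.61 FPKM in control 1 to 4. Of its 892 reads over the 7 libraries, 67.2% came from control 2, and MDL-800 2 had 3 reads (exact 95% Poisson interval 0.619 to 8.77, which like every such limit here covers counting error only). The group means of Ngp were 2.72 ± 2.73 FPKM for MDL-800 (SD, n = 3) and 8.01 ± 11.5 FPKM for control (SD, n = 4), or 2.28 ± 1.03 FPKM (SD, n = 3) in control without control 2. Mmp8, neutrophil collagenase (chromosome 9, 7558456 to 7568485, plus strand), was at 0.382, 0.0265 and 0.211 FPKM in MDL-800 1, 2 and 3 and at 0.0853, 2.37, 0.175 and 0.0839 FPKM in control 1 to 4. Those values rest on 112 reads in control 2 and 1 to 16 reads in each other library. Mmp9, gelatinase B (chromosome 2, 164940780 to 164955850, plus strand), which macrophages can also make, was at 0.736, 0.218 and 0.306 FPKM in MDL-800 1, 2 and 3 and at 0.390, 1.86, 0.499 and 0.230 FPKM in control 1 to 4. Control 2 stood at 18.3 times the median of the other libraries for Mmp8, 12.1 times for Ngp and 5.35 times for Mmp9.

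The surface receptors were less alike. Csf3r, the G-CSF receptor (chromosome 4, 126024550 to 126044440, plus strand), was at 2.52, 0.802 and 2.49 FPKM in MDL-800 1, 2 and 3 and at 1.85, 5.14, 1.62 and 1.75 FPKM in control 1 to 4. Control 2 was 2.86 times the median of the other libraries for Csf3r, and controls 1, 3 and 4 differed little, at 1.74 ± 0.115 FPKM (SD, n = 3). Ly6g (chromosome 15, 75155240 to 75159126, plus strand), the surface antigen used to sort mouse neutrophils, had 26 reads in control 2 (exact 95% Poisson interval 17.0 to 38.1), 4 in MDL-800 3, 2 in MDL-800 1, 1 in each of the other 3 controls and 0 in MDL-800 2. On the deposited scale Ly6g was at 1.42 FPKM in control 2 and at most 0.242 FPKM elsewhere; the 0 of MDL-800 2 allows up to 0.205 FPKM when 3 reads are taken as its limit. Ly6g has close relatives in the Ly6 gene cluster, so its reads are uncertain. Il1r2, the decoy receptor that binds interleukin-1 without signalling (chromosome 1, 40074079 to 40125231, plus strand), was the exception to the pattern. It had 7, 1 and 2 reads in MDL-800 1, 2 and 3 and 0, 4, 2 and 6 reads in control 1 to 4, at most 0.213 FPKM. Depth therefore cannot show a difference in Il1r2, whose counting intervals overlap between all pairs of libraries; control 1, at 0 reads, allows up to 0.108 FPKM. The Il1r2 gene overlaps Gm16894 and Gm37347, and the library chemistry does not mark strand.

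Retnlg encodes a resistin-like secreted protein of mouse neutrophils and their precursors. Retnlg (chromosome 16, 48872621 to 48874496, plus strand) was at 6.54, 0.434 and 2.11 FPKM in MDL-800 1, 2 and 3 and at 0.698, 15.3, 1.55 and 1.14 FPKM in control 1 to 4. MDL-800 1 stood nearer to control 2 here than for the other tested members except Csf3r: control 2 was 2.33 times as high for Retnlg and 2.04 times for Csf3r, against 3.53 to 4.51 times for S100a9, S100a8, Il1b and Ngp. Retnlg has close paralogs in the resistin-like family and its reads are uncertain for that reason.

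Il1b (chromosome 2, 129364570 to 129371139, minus strand) was at 4.61, 1.89 and 3.26 FPKM in MDL-800 1, 2 and 3 and at 1.63, 18.1, 2.96 and 3.45 FPKM in control 1 to 4. Control 2 was again the highest, at 5.82 times the median of the other libraries, and held 671 of 1210 reads. The lowest library was control 1, not MDL-800 2. Il1b varied less than the calprotectin genes, 11.1-fold between libraries, and the ratio of S100a9 to Il1b ran from 3.31 in control 4 and 3.52 in MDL-800 2 to 13.2 in control 1. The group means of Il1b were 3.25 ± 1.36 FPKM for MDL-800 (SD, n = 3) and 6.53 ± 7.74 FPKM for control (SD, n = 4), or 2.68 ± 0.944 FPKM (SD, n = 3) in control without control 2. Il1b overlaps the antisense gene Il1bos, and their reads cannot be told apart without strand.

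**Figure D2:**
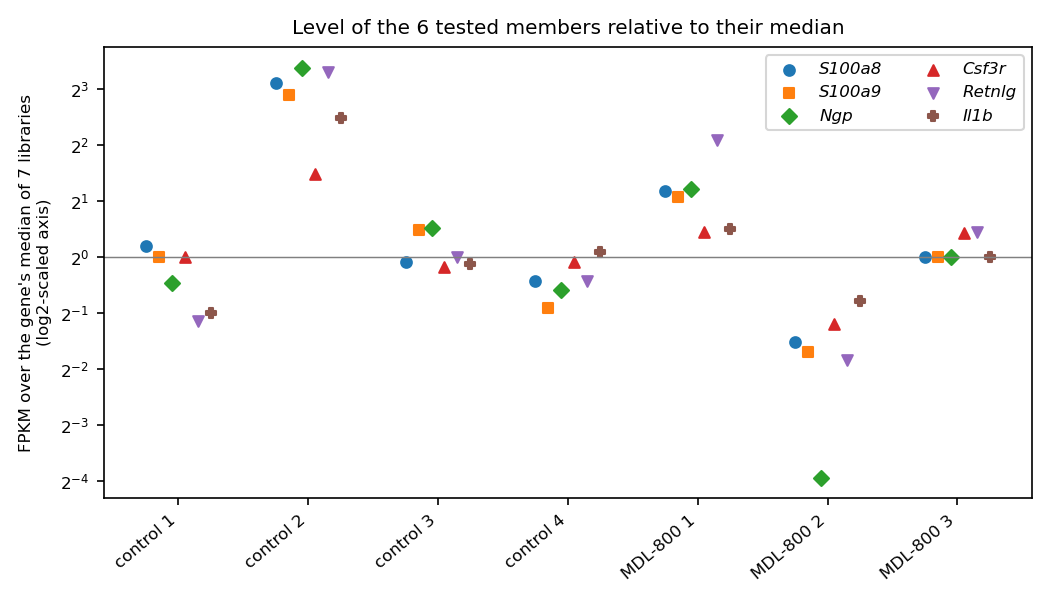
FPKM of the 6 tested members, divided by each gene's median over the 7 libraries (vertical axis, log2-scaled), for each library (horizontal axis, no order implied). All 6 genes are highest in control 2, and 5 of them are lowest in MDL-800 2, where Ngp rests on 3 reads.

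Between the groups, no gene of the set passed the test. Limma on log2(FPKM + 1), with Benjamini-Hochberg adjustment over the 11394 genes tested and a threshold of 0.05, called 0.0% of genes; 553 genes, 4.85%, had an unadjusted p under 0.05, and none of the 6 tested members was among them. Limma voom on recovered reads called 0 genes as well, with 748 at an unadjusted p under 0.05. The 6 members tested are S100a8, S100a9, Ngp, Il1b, Retnlg and Csf3r; Mmp8, Mmp9, Ly6g and Il1r2 averaged under 1 FPKM and were not tested in that fit. All 6 had a log2 fold change below 0 in MDL-800 against control, with a median of -0.58, where 45.8% of all tested genes were below 0 and their median was 0.02. The members share their high library, so their common sign is not 6 separate observations.

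The log2 fold change of Ngp was -0.86 with a standard error of 0.93 (95% interval -3.06 to 1.34, limma adjusted p = 0.950). S100a9 was at -0.79 with a standard error of 0.95 (limma adjusted p = 0.950), and S100a8 at -0.75 with a standard error of 0.93 (limma adjusted p = 0.950). Il1b was at -0.41 with a standard error of 0.65 (95% interval -1.95 to 1.13, limma adjusted p = 0.951), and Csf3r at -0.26 with a standard error of 0.38. Retnlg was nearest to 0, at -0.12 with a standard error of 0.89 (limma adjusted p = 0.986). On this scale the change of low genes is understated; the voom value of Ngp was -1.59 and that of Csf3r -0.41. Each interval includes 0 and also includes changes of more than 1 log2 unit downward, so the fit neither shows a difference nor sets the groups equal. When every gene above 0 was fitted, Mmp8, Mmp9, Ly6g and Il1r2 had limma adjusted p-values of 0.915, 0.913, 0.913 and 0.991.

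Those signs depended on control 2 and on MDL-800 2. Without control 2, 2 of 6 members were below 0 (48.0% of genes in that fit), the median was 0.03, and the log2 fold changes were -0.10 for Ngp, -0.04 for S100a9, 0.03 for S100a8, 0.04 for Csf3r, 0.19 for Il1b and 0.62 for Retnlg. Without MDL-800 2, the library that was low, 4 of 6 were below 0 (49.7% of genes), with Retnlg at 0.47, Csf3r at 0.06, S100a9 at -0.09, S100a8 at -0.11, Il1b at -0.16 and Ngp at -0.18. Leaving out MDL-800 1 moved the values the other way, to -1.43 for Ngp, -1.39 for S100a9, -1.34 for S100a8, -0.73 for Retnlg, -0.64 for Il1b and -0.42 for Csf3r.

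In the 5 Y-negative libraries, MDL-800 1 and 3 against control 2, 3 and 4, 5 of 6 members were below 0 (47.1% of genes), at -0.50 for Ngp, -0.51 for Il1b, -0.30 for S100a9, -0.28 for S100a8 and -0.01 for Csf3r, with Retnlg at 0.12. Control 2 is among those libraries. Without control 3, which lacked Xist, all 6 were below 0 (43.9% of genes), at -0.91 for Il1b, -0.80 for Ngp, -0.74 for S100a8, -0.47 for S100a9, -0.28 for Retnlg and -0.23 for Csf3r, and 0 passed. The Y-positive pair, MDL-800 2 against control 1 with 1 library per group and no test, had 8 of the 10 genes lower in MDL-800 2, all but Il1b and Il1r2, against 42.2% of the genes above 0 in at least 1 library. Of the 6 tested members 5 were lower, against 47.7% of tested genes.

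**Figure D3:**
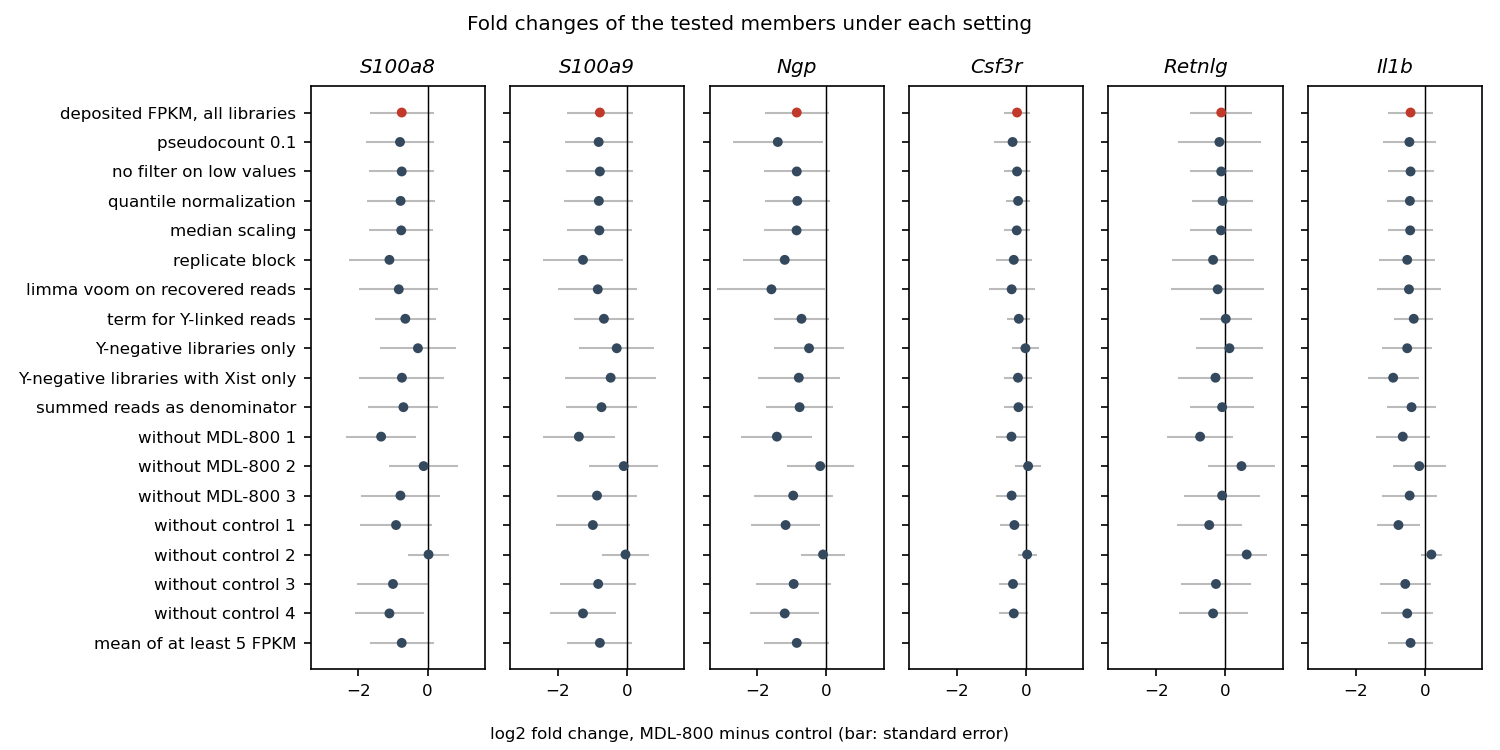
Log2 fold change, MDL-800 minus control (horizontal axes), of the 6 tested genes under each setting (rows); bars are standard errors and the top row in red is the value with all libraries as deposited. The values gather near 0 without control 2, except Retnlg at 0.62, and lie farthest below 0 without MDL-800 1 for S100a8, S100a9, Retnlg and, by little, Csf3r.

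Other genes that neutrophils express were also examined. Of 15 tested receptor and oxidase genes, control 2 was the highest library for all 15, with a median of 5.90 times the other libraries. Fcgr4, an activating IgG receptor, was at 139.1 FPKM in control 2 and 2.77 to 39.6 FPKM elsewhere, and Cybb, the catalytic subunit of the phagocyte NADPH oxidase, at 59.2 FPKM against 1.76 to 10.1 FPKM. Cyba, its membrane partner, was at 76.9 FPKM against 8.11 to 37.8 FPKM. Macrophages express these 3 genes too. All 15 had log2 fold changes below 0 in MDL-800 against control, with a median of -0.58, and 0 passed. Of 18 granule and mature neutrophil genes, 7 were tested, 6 were below 0 with a median of -0.54, and 0 passed. The 7 tested were mixed: control 2 was highest for Camp, Ltf and Elane, the genes of cathelicidin, lactoferrin and neutrophil elastase, and not for Wfdc21, Lcn2, Prtn3 and Hdc. The genes of this list under 1 FPKM were highest in control 2, some by few reads, all but Clec4e and Padi4. Among them Pglyrp1, Ctsg, Mpo and Cd177 stood there at 5.70, 6.27, 6.31 and 7.34 times the median of the other libraries. Lcn2, which hepatocytes make in the acute phase, was highest in control 4 (426.3 FPKM, against 138.0 FPKM in control 2), and Wfdc21 was at 1085 FPKM in control 2, the lowest library. Prtn3, the protease proteinase 3, was at 55.2, 31.3 and 18.0 FPKM in control 3, 4 and 2 but at 2.51 FPKM in control 1 and at 0.966 to 2.31 FPKM in MDL-800, so its 3 MDL-800 values lay below all 4 controls, control 1 by little (log2 fold change -2.76, standard error 0.88, limma adjusted p = 0.950).

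The genes whose pattern was most like that of S100a9 were Ngp, S100a8, Camp, Ccl24 and Ltf. Likeness was the mean absolute difference, over the 7 libraries, between log2(FPKM + 1) values centred at each gene's mean; it was 0.16, 0.20, 0.35, 0.37 and 0.43, against a median of 1.04 over all tested genes. Ccl24, the chemokine eotaxin-2, was at 23.8 FPKM in control 2 and 0.398 to 2.77 FPKM elsewhere. For Il1b the 5 closest genes were Fam129a, Bex3, G6pdx, Lcp2 and Fyb, at 0.09 to 0.15, against a median of 0.68. Lcp2 and Fyb encode adaptor proteins of leukocyte signalling and G6pdx encodes glucose-6-phosphate dehydrogenase. None of the 5 genes closest to Il1b is a member of the set.

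Genes that act before and after interleukin-1 were mixed. Of 16 tested genes of the IL-1 family, its receptors and its signalling, 8 were above and 8 below 0, with a median of 0.01. Of the 16, 0 passed, and control 2 was highest for 5. The largest change among them was that of Il1r1, the signalling receptor, at -0.91 with a standard error of 0.32 (limma adjusted p = 0.950). Il1r1 was at 3.42 to 5.45 FPKM in MDL-800 and 4.89 to 14.4 FPKM in control, so the groups overlapped. They did not overlap for Myd88, lower in MDL-800 at 6.92 to 8.36 FPKM against 8.42 to 14.2 FPKM. Nor did they for Traf6, higher in MDL-800 at 2.45 to 2.66 FPKM against 2.16 to 2.40 FPKM. Il1rap, the shared receptor subunit, was at 26.4 FPKM in both Y-positive libraries and at 4.66 to 12.8 FPKM in the others; Irak1, a receptor-associated kinase, had a log2 fold change of 0.07 and Il18, a related cytokine, -0.15. The inflammasome genes were mostly high in the same library: control 2 was highest for 4 of 5 tested, with a median of 2.31 times the other libraries. All 5 were below 0 in MDL-800 against control, with a median of -0.31, and 0 passed. Casp1, which cleaves the Il1b precursor, was at 10.3 FPKM in control 2 and 1.63 to 4.89 FPKM elsewhere, and Pycard, the inflammasome adaptor, at 5.38 FPKM against 0.339 to 1.43 FPKM. Gsdmd, which forms the pore for release, was highest in control 4 (28.4 FPKM) and at 17.9 to 18.6 FPKM in the 3 MDL-800 libraries, below all 4 controls (19.5 to 28.4 FPKM), with a log2 fold change of -0.31 and a limma adjusted p of 0.950.

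Signals that attract or retain neutrophils were mixed. Of 4 tested genes, Cxcl1, Ppbp, Icam1 and C3, all were below 0, with a median of -0.69, and 0 passed. Cxcl1, the main neutrophil chemokine of mouse liver, was at 19.8 FPKM in control 2, the lowest of the 4 controls. In control 3 Cxcl1 was at 29.1 FPKM. Its 3 MDL-800 values of 6.11 to 11.6 FPKM lay below all controls (log2 fold change -1.28, limma adjusted p = 0.950). Groups without overlap, as for Cxcl1, Gsdmd and Prtn3 among other listed genes, were found for 6.45% of tested genes, either direction counted. Some listed genes lay the other way. Clec4g, of sinusoidal endothelium, was at 13.1 to 14.7 FPKM in MDL-800 and 2.40 to 12.6 FPKM in control. Zbtb46, a dendritic cell marker, was at 0.673 to 0.755 FPKM against 0.430 to 0.664 FPKM. Icam1, an endothelial adhesion molecule, was highest in control 2 at 10.6 FPKM, and complement C3 in control 4 at 2893 FPKM. Csf3, the gene of G-CSF, was at 0 in all 7 libraries. The 3 most abundant of the other S100 genes, S100a1, S100a10 and S100a13, stood in control 2 at 0.742, 0.879 and 0.879 times the median of the other libraries. Control 2 was highest for 1 of the 6 tested S100 genes, S100a6, at 2.34 times, and S100a11 stood there at 1.41 times. Among the other metalloproteases Mmp19, Mmp14 and Mmp15 were at 0.971, 1.02 and 0.624 times, and control 2 was highest for 1 of 6 tested, the inhibitor Timp2, at 1.54 times. Of 6 tested S100 genes 5 were above 0 in MDL-800 against control, and all 6 tested metalloproteases and inhibitors were, with 0 passing in both lists.

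Markers of other blood and liver cells moved with control 2 as well. The summed FPKM of 12 macrophage and Kupffer cell markers was 2329 in control 2 and 273.2 to 825.9 in the other controls, with 256.9 to 873.0 in MDL-800; control 2 was highest for 10 of the 12, and C1qa and C1qb, subunits of complement C1q, were at 4.06 and 4.60 times the median of the other libraries. Of these 12, 10 were below 0 in MDL-800 against control. The 7 red blood cell markers summed to 817.1 FPKM in control 2 and 126.3 to 198.6 FPKM elsewhere, with Hba-a1 and Hbb-bs, the globin genes, at 6.54 and 4.97 times. The 6 platelet markers summed to 68.1 FPKM in control 2 and 2.97 to 13.2 FPKM elsewhere, with Pf4 and Ppbp at 11.2 and 4.62 times and Gp1bb at 0 in all libraries. Monocyte markers summed to 41.8 FPKM in control 2 and 38.7 FPKM in control 4, and Plac8 was highest in control 4 and Ly6c2 in MDL-800 1. Control 2 was highest for 3 of the 7 tested monocyte markers, among them Nr4a1 at 6.18 times. The median of the 7 was 2.27 times the other libraries. The part of these cell types in the neutrophil values was not tested.

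The summed lymphocyte, dendritic, stellate and hepatocyte markers were not highest in control 2. Those of sinusoidal endothelium were, at 34.9 FPKM against 9.07 to 32.4 FPKM elsewhere, with control 2 highest for 2 of the 6, Pecam1 at 3.86 times and Lyve1 at 4.42 times the median of the other libraries. The 7 B and plasma cell markers were highest in control 3 (533.4 FPKM), with Ighm and Xbp1 in control 2 at 0.847 and 0.983 times the median of the others. The 9 T and NK cell markers summed to 9.49 FPKM in control 2 and 2.84 to 12.1 FPKM elsewhere, Nkg7 and Gzma being the most abundant. Dendritic cell markers, led by Clec9a and Zbtb46, summed to 4.39 FPKM in control 2 and 2.14 to 5.29 FPKM elsewhere. Clec4g and Oit3, of sinusoidal endothelium, were at 0.956 and 1.03 times, Dcn and Colec11, of stellate cells, at 1.09 and 1.08 times, and Alb and Apoa1 at 0.979 and 0.861 times. MDL-800 2, the library with the lowest values of 8 of the 10 genes, also had the lowest sums of the macrophage, monocyte, platelet, T and NK, dendritic and B cell lists. Macrophage markers in control 1, the other Y-positive library, were next lowest at 273.2 FPKM.

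**Figure D4:**
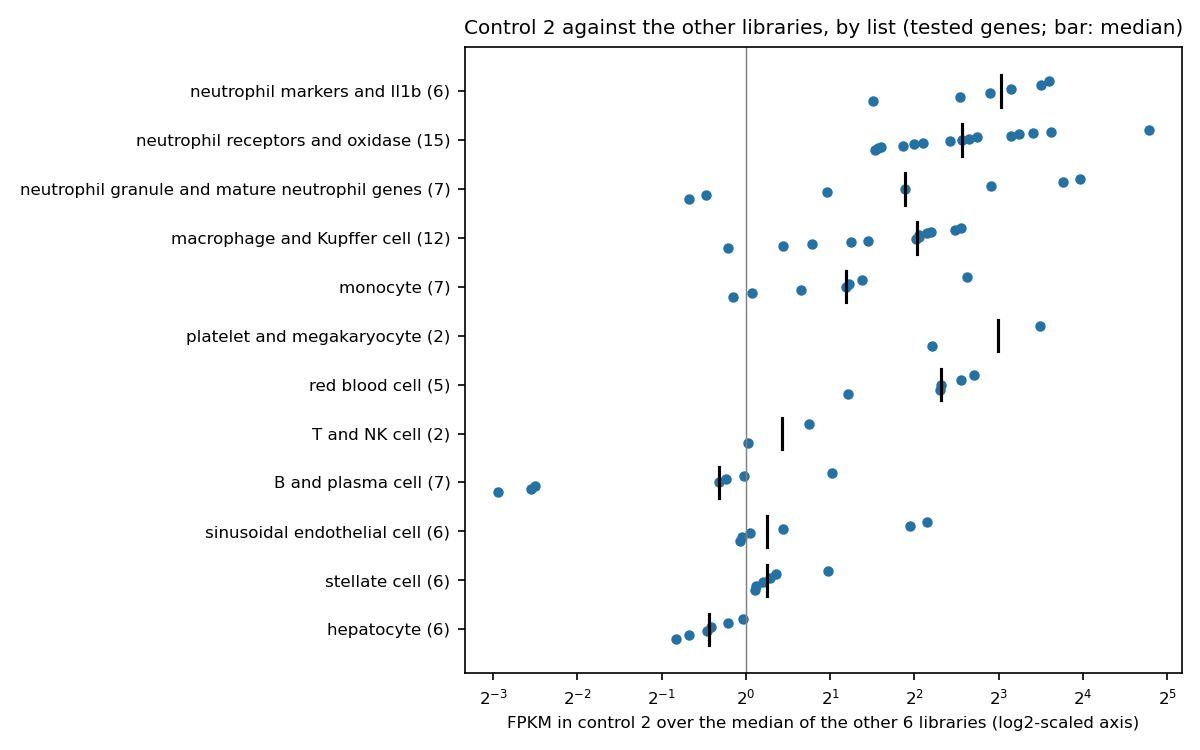
FPKM in control 2 divided by the median of the other 6 libraries (horizontal axis, log2-scaled), one point per tested gene, by list (number of tested genes in brackets); bars are list medians. The neutrophil, macrophage, platelet and red blood cell lists lie mostly to the right of 1, and the hepatocyte list lies at or to the left of 1. Monocyte, T and NK, sinusoidal endothelial and stellate lists also lie mostly to the right, with medians of 2.27, 1.35, 1.19 and 1.19.

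Promoter sequence of the members is shown because the genes share 1 high library, and not because binding was measured. RefSeq (GRCm38.p6) gave a window for 9 of the 10 genes, all but Mmp9. Its start lay 0 bases from that of the deposited table for S100a9 and Il1b, 13 bases for Retnlg and 12014 bases for Il1r2. The distance was 27 bases for Mmp8, 21 for Ly6g, 61 for Ngp, 93 for S100a8 and 109 for Csf3r. The windows of Ly6g, Ngp, S100a8 and Csf3r therefore run into the gene as deposited, and that of Il1r2 lies wholly inside it. All 9 are counted below, with the RefSeq start as the start, and Il1r2 counts as a window without a match. With the nearest window for Ly6g, which had more than 1, the 250 bases before the start were searched on both strands for TATAAA (the core promoter element), TTGCNNAA (a form bound by C/EBP factors, which drive granulocyte genes) and GAGGAA (a core bound by PU.1), whose matches may overlap. TTGCNNAA was found in 5 of 9 windows and in 9.56% of all 32851 promoter windows of that length, GAGGAA in 4 of 9 and 23.3% and TATAAA in 3 of 9 and 12.4%. The windows of S100a9 (chr3:90695722-90695971, minus strand), Retnlg (chr16:48872358-48872607, plus strand) and Il1b (chr2:129371140-129371389, minus strand, inside the antisense gene Il1bos) follow 5′ to 3′, ending at the base before the start. Capitals mark TTGCNNAA or its reverse complement in S100a9 and Retnlg and TATAAA in Il1b; a match is a run of letters and not a shown binding site.
S100a9: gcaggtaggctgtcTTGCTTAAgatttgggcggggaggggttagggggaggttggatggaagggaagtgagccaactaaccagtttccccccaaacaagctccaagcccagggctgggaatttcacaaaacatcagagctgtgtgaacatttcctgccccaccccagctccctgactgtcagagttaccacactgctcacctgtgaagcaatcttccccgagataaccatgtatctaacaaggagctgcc
Retnlg: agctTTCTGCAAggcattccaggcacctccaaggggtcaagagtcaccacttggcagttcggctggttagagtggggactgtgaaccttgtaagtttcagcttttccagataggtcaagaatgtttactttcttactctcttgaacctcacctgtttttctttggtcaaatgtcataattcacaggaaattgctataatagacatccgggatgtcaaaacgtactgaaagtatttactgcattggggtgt
Il1b: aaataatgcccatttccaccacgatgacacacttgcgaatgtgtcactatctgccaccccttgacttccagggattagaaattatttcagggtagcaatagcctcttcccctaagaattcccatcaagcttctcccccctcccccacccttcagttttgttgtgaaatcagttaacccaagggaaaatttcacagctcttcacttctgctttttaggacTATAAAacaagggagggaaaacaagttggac
Counting the base before the start as -1, the match begins at -236 in S100a9 and at -246 in Retnlg, and the TATAAA of Il1b at -31. No TATAAA was found in the S100a9 or Retnlg window.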

How the data were processed

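Liver RNA of 7 mouse libraries was reverse-transcribed with a SMARTer low-input kit and sequenced after NEBNext library preparation, per the labels' protocols. The authors deposited 1 table of FPKM per gene; its gene lengths are taken as deposited. TopHat2 2.0.14, Bowtie2 2.1.0, Cufflinks 2.2.1 and build mm9 are named, per the submitters' processing notes; how reads were counted is not stated there. Coordinates match GRCm38: of 54409 gene identifiers also found in GENCODE M21, 53756 start at the same position. FPKM times length was a whole multiple of 1 step for 100.0% of values above 0 (tolerance 0.01), which gave whole reads; these summed to 0.995 to 1.28 times the denominator implied by that step. Deposited values were not rescaled. Genes averaging 1 FPKM or more were tested with limma 3.58.1 (R 4.3.3, lmFit, eBayes with a trend, two-sided) on log2(FPKM + 1). The procedure was also run on simulated data in which all genes had the same degree of variation and no library stood apart. That setting differs from the members described here, where control 2 stood apart. Members and lists were chosen with earlier results of these data known. Named genes were the members, the 3 most abundant of each pathway list and 2 of each cell type list. The 5 closest to S100a9 and to Il1b were also named. Elane, Hdc, Csf3, Il1r1, S100a6, S100a11, Timp2, Xist, Pecam1, Lyve1, Gp1bb, Alas2, Prg2, Siglecf and Epx were named from their values. So were Xcr1, Nr4a1, Myd88, Traf6, Mpo, Pglyrp1, Cd177, Ctsg, Clec4e and Padi4. The singling out of control 2, MDL-800 1 and MDL-800 2 also followed from the values. Alternatives changed the pseudocount, filter, scaling, test, replicate block, Y-linked term and libraries. Plots used matplotlib 3.10.9 in Python 3.11.15.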

Additional observations from a re-analysis of the deposited data

Results flagged for a closer look

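Among the 4 control libraries, control 2 lay apart from the other 3 for 9 of the 10 genes: its gap to the next control, divided by the control range, exceeded Dixon's 95% critical value for 4 samples. The control 2 values were 159.9 FPKM for S100a9, 111.5 for S100a8, 25.2 for Ngp, 18.1 for Il1b, 15.3 for Retnlg, 5.14 for Csf3r, 2.37 for Mmp8, 1.86 for Mmp9 and 1.42 FPKM for Ly6g. The ratio of gap to range was lowest for Mmp9, at 0.835, and highest for Ly6g, at 0.998. For normally distributed values, chance gives such a result in about 1 of 20 groups, counting any library on either side. The 9 genes come from the same library. Control 2 lay apart on the high side in this way for 2.15% of the 11394 tested genes and 7.25% of the 26975 genes above 0. Those shares count 1 library on 1 side, so the rate of 1 in 20 is not their measure. Il1r2 did not meet the criterion, with 0 to 6 reads per control. The MDL-800 group, with 3 libraries, was not examined this way.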

How the results depend on the processing

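None of the 6 tested members passed the limma threshold under any alternative run, and their adjusted p ranged from 0.688 upward. Of 106 member values under the alternatives, 98 kept their sign. The other 8 were S100a8 at 0.028, Il1b at 0.19, Csf3r at 0.036 and Retnlg at 0.62 without control 2, Csf3r at 0.065 and Retnlg at 0.47 without MDL-800 2, and Retnlg at 0.013 with a term for Y-linked reads and 0.12 in the Y-negative libraries. With 1 library left out, the values ran from -1.34 to 0.028 for S100a8, -0.76 to 0.19 for Il1b, -0.42 to 0.065 for Csf3r and -0.73 to 0.62 for Retnlg. The count of members below 0 ran from 2 to 6, and the count of genes past the threshold from 0 to 1, when a library was left out: Gm34654 without MDL-800 1 and Cyp46a1 without control 1, neither a member. The share of tested genes below 0 was 39.2% with summed reads as denominator, an alternative chosen after seeing the data, as was the fit of Y-negative libraries with Xist, and 39.8% with voom; all 6 members were below 0 in both. Same-numbered libraries did not deviate together (correlations across genes of -0.59, -0.55 and 0.06). The Y-positive libraries MDL-800 2 and control 1, whose numbers differ, correlated at 0.77, so the Y-linked split weighs on this check. Whether the numbers pair libraries cannot be told from it. With a replicate block, in which control 4 has no partner and adds nothing, 0 genes passed, S100a9 was at -1.27, and all 6 members were below 0. Csf3r and Retnlg, with means under 5 FPKM, have no value under the stricter filter. The planned edgeR test was not run, because the deposited unit is FPKM. Depth limits Il1r2, Ly6g and Mmp8, with 22, 35 and 150 reads in all.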

Other observations

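One gene outside the set stood out further than its members. Ccr3, the eotaxin receptor carried by eosinophils, had 240 reads in control 2 (3.77 FPKM) and 0 to 4 reads in each of the other 6 libraries. It leads a list of 8 eosinophil, basophil and mast cell markers that summed to 6.04 FPKM in control 2 and 0.492 to 1.07 FPKM elsewhere, followed by Kit, a mast cell and progenitor receptor, at 0.490 FPKM in control 2 and 0.190 to 0.436 FPKM elsewhere. Other eosinophil genes were also highest there, at low levels. Prg2, the major basic protein gene, was at 0.552 FPKM (9 reads) against 0 to 0.421 FPKM elsewhere (5 reads in control 3). Siglecf was at 0.442 FPKM (24 reads) against 0 to 0.368 FPKM (18 reads in MDL-800 3). For Prg2 and Siglecf these counts are too low to set control 2 apart from the next library. Epx, eosinophil peroxidase, was at 0 in all 7 libraries. Ccl24, whose product binds the Ccr3 receptor, was at 23.8 FPKM in the same library. Alas2, the heme enzyme of red cell precursors, did not follow the globins: it stood in control 2 at 2.32 times the median of the other 6 libraries, and was at 50.1 and 47.2 FPKM in the Y-positive libraries MDL-800 2 and control 1, and at 3.44 to 5.24 FPKM in control 3, control 4, MDL-800 1 and MDL-800 3.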
